A study of Mus musculus with 6 samples.

Results

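The genes described here encode the subunits of the AMPA and NMDA receptors, which carry most fast excitatory transmission in the cortex. They are the 10 rows of the raw count table whose gene symbol is Gria1, Gria2, Gria3, Gria4, Grin1, Grin2a, Grin2b, Grin2c, Grin2d or Grin3a, out of 22000 symbols. All 10 passed the filter on low counts, among 13185 genes that did. The choice was made by name and not by any measured value of these genes, although earlier results of these data were known. RNA was sequenced from the prefrontal cortex (PFC) of 3 control and 3 early life stress (ELS) mice, with 1 library per mouse. All were wild-type C57BL/6N males of 9 weeks. ELS mice had been housed singly under a filter cap from weaning, whereas control mice shared a cage without such a cap, so that isolation and cap cannot be told apart. According to the study's methods, both groups were born to the same mother and stayed in their housing until dissection.

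AMPA receptors are tetramers of the products of Gria1 to Gria4 (GluA1 to GluA4) and open within milliseconds of glutamate release. GluA2 makes the channel nearly impermeable to calcium once its transcript has been edited by the adenosine deaminase ADAR2, the product of Adarb1. NMDA receptors need the obligatory GluN1 subunit (Grin1), which binds glycine or D-serine, together with GluN2 subunits (Grin2a to Grin2d), which bind glutamate, and sometimes GluN3 subunits (Grin3a, Grin3b). In cortex GluN2B predominates early, and GluN2A joins it during postnatal maturation.

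RefSeq windows of 250 bases before the gene start were at hand for 5 of the 10 genes on GRCm38.p6, and 3 of them are shown, each free of annotated exons of its gene. They belong to Gria2, the member with the most reads, to Grin1, the subunit that every NMDA receptor needs, and to Grin2c, the only member of the 5 with a GC box. All 3 lie on the minus strand and are written 5′ to 3′ in lower case. Capitals mark a match to RE1, the element bound by the repressor REST, in Gria2, to the core of the cyclic AMP response element (TGACG) in Grin1, and to the GC box (GGGCGG) in Grin2c. The matches in Gria2 and Grin1 are on the opposite strand and appear here as their reverse complements.
Gria2, chr3:80802836-80803085: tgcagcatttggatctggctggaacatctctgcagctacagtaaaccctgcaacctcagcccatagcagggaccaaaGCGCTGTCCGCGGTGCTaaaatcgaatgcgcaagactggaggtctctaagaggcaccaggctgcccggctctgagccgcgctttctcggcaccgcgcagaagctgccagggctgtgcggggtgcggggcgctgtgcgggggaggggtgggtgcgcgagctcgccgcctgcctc
Grin1, chr2:25319188-25319437: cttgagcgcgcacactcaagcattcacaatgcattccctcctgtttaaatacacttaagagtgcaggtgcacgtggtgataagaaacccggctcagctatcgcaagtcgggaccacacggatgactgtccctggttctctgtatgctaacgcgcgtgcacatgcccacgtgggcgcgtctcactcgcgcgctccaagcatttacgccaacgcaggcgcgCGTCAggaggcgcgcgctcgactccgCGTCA
Grin2c, chr11:115267244-115267493: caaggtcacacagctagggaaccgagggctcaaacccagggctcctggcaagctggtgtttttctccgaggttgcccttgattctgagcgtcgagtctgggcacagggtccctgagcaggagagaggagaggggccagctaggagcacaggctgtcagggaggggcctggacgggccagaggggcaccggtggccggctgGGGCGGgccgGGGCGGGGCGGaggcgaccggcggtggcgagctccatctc
The RE1 pattern was searched after the Gria2 window had been read, and was present in 4 of 27025 windows of this length, or 0.015%. The 5-letter core occurred 2 times before Grin1 and in 17.8% of all windows. The GC box occurred 3 times, with 2 of the matches overlapping, before Grin2c and in 33.0% of all windows. GC content was 64.8% before Gria2, 58.8% before Grin1 and 68.8% before Grin2c, against a median of 52% over all windows. These matches describe letters only, and no binding was measured.

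The total count ran from 28405795 to 35241743 per mouse, and each ELS library was deeper than each control library. Cortical excitatory neurons were well represented, with the vesicular glutamate transporter Slc17a7 at 1481 to 1703 CPM, counts scaled to library size, in every mouse. Markers of striatal projection neurons, which a PFC dissection can include, were uneven. The summed CPM of the 9 measured of 10 striatal markers was 299.7, 329 and 561 in the controls, mice 1 to 3, against 547, 363 and 389 in ELS mice 1 to 3. None of the 9 was at 0, and the dopamine receptor gene Drd2 ran from 3.38 CPM in control mouse 1 to 11.6 CPM in ELS mouse 1. Control mouse 3 and ELS mouse 1 thus stood apart from the other 4, 1 in each group. In bulk tissue, fewer cells of a type and less RNA per cell cannot be told apart.

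No AMPA or NMDA receptor subunit gene passed the test for a difference between ELS and control mice, the comparison that the study was designed for. Of the 10 genes, 8 were nominally higher in ELS mice, as were 47.5% of all genes tested. The log2 fold changes of the 10 ran from -0.07 for Gria4 to 0.15 for Grin2b. Their median was 0.04, beside -0.00461 over all genes tested, and was -0.05 without control mouse 3. With a call defined by an adjusted p below 0.05 and a log2 fold change beyond 0.3 either way, the quasi-likelihood test of edgeR gave 0 calls among the 10 and called 0.0152% of all genes. DESeq2, the edgeR likelihood ratio test and limma-voom called 0 of the 10 each, against 0.137%, 0.212% and 0.0152% of all genes. None of the 10 had an unadjusted p under 0.05, which 4.23% of all genes had. The groups overlapped in each of the 10, whereas they did not overlap in 8.28% of all genes. Because a p that misses the threshold does not show equal levels, the 95% confidence interval of each fold change is given with the values that follow. The median half-width of these intervals was 0.20 on the log2 scale for the 10 genes and 0.19 for all genes.

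**Figure D1:**
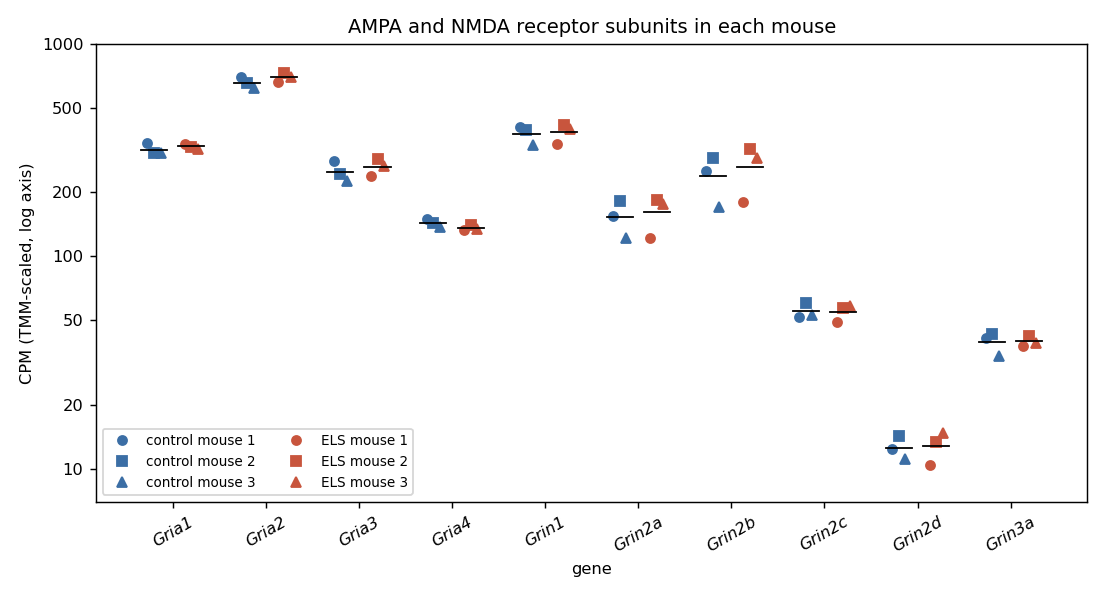
TMM-scaled CPM of the 10 subunit genes (log axis) in the 3 control mice (blue) and the 3 ELS mice (red), with a symbol for each mouse number and a bar at the group mean. The groups overlap in every gene, and the widest scatter is that of Grin2b, from 170.2 CPM in control mouse 3 to 321 CPM in ELS mouse 2.

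Among the AMPA receptor subunits, Gria2 occupies bases 80681450 to 80802835 of chromosome 3 on the minus strand (GRCm38, as for all coordinates of genes). Its transcript was counted at 698, 652 and 623 CPM in control mice 1 to 3 and at 663, 727 and 699 CPM in ELS mice 1 to 3. ELS mouse 1 fell between the control mice, and the group means were 658 ± 37.8 and 696 ± 31.9 CPM (SD, n = 3 per group). The log2 fold change was 0.08 (standard error 0.0677, interval from -0.06 to 0.23, edgeR quasi-likelihood adjusted p = 0.99998), so that the interval reached from -4.37% to 17.2% in percent change.

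Gria1, on chromosome 11 from 57011387 to 57330244 (plus strand), encodes GluA1, the subunit whose insertion into synapses accompanies potentiation. Its level was 341, 306 and 308 CPM in the controls and 339, 328 and 321 CPM in ELS mice 1 to 3. All ELS mice lay inside the control range. The log2 fold change of 0.05 had an interval from -0.10 to 0.20. Gria3, on chromosome X from 41400854 to 41678601 (plus strand), gave 279.8, 243 and 226 CPM in the controls and 239, 288 and 265 CPM in ELS mice. Here the mice of each group spread over 1.24-fold and 1.204-fold, more than the group means differed, and the log2 fold change was 0.08 with an interval from -0.12 to 0.27.

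Gria4, on chromosome 9 from 4417896 to 4796234 (minus strand), encodes GluA4, a subunit of fast receptors that is prominent in parvalbumin interneurons. It was the only AMPA subunit with a lower mean in ELS mice. The levels were 150.2, 143 and 138 CPM in the controls and 134, 141 and 135 CPM in ELS mice, with ELS mouse 2 above control mouse 3. The log2 fold change of -0.07 (standard error 0.0647, interval from -0.22 to 0.07) had the tightest error of the 10 genes and an unadjusted p of 0.269 in edgeR's quasi-likelihood test.

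The obligatory NMDA subunit gene Grin1 occupies bases 25291181 to 25319187 of chromosome 2 (minus strand). It was counted at 406, 393 and 335 CPM in control mice 1 to 3 and at 339, 416 and 399.7 CPM in ELS mice 1 to 3. Each group held 1 low mouse and 2 higher mice, and the means of 378 ± 37.7 and 385 ± 40.3 CPM (SD, n = 3 per group) were closer to each other than the mice within a group. The log2 fold change was 0.03 with an interval from -0.17 to 0.22. The antisense gene Grin1os overlaps 13.5% of the Grin1 exon length on the opposite strand, and the strand setting of the counting is not given in the sources used here.

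The same arrangement was wider in the glutamate-binding subunits that dominate in forebrain. Grin2a, on chromosome 16 from 9567898 to 9995560 (minus strand), was at 156, 182 and 123 CPM in the controls and at 122, 184 and 177 CPM in ELS mice. Grin2b, on chromosome 6 from 135713233 to 136173511 (minus strand), was at 254, 292 and 170.2 CPM in the controls and at 180.1, 321 and 291 CPM in ELS mice. Control mouse 3 and ELS mouse 1 were the low mice of both genes, and the lowest and highest mice differed 1.51-fold for Grin2a and 1.88-fold for Grin2b. The log2 fold change was 0.07 (interval from -0.26 to 0.40) for Grin2a and 0.15 (interval from -0.29 to 0.58) for Grin2b, whose interval therefore reached from -18.1% to 49.6% in percent change. DESeq2 gave larger standard errors for this pair, 0.245 and 0.334, than edgeR's quasi-likelihood fit, 0.152 and 0.2002.

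Grin2c, on chromosome 11 from 115249169 to 115267243 (minus strand), encodes the subunit of receptors with weak magnesium block. Its level was 52.1, 60.6 and 53.0 CPM in the controls and 48.9, 57.1 and 58.3 CPM in ELS mice, with overlapping groups and a log2 fold change of -0.01 (interval from -0.20 to 0.18). Grin2d, on chromosome 7 from 45831883 to 45878378 (minus strand), encodes a subunit found mainly in interneurons of adult forebrain, and had 12.4, 14.2 and 11.1 CPM in the controls and 10.4, 13.4 and 14.7 CPM in ELS mice. It was the scarcest of the 10, from 318 to 473 counts per mouse, and its log2 fold change was 0.02 (interval from -0.27 to 0.32). The antisense gene Gm45441 overlaps 9.66% of its exon length.

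Grin3a, on chromosome 4 from 49661611 to 49845744 (minus strand), encodes GluN3A, a subunit that restrains synapse maturation in young cortex. The levels were 41.3, 43.0 and 34.0 CPM in the controls and 37.7, 42.2 and 39.3 CPM in ELS mice. Every ELS mouse lay within the control range, and the log2 fold change was 0.01 (interval from -0.19 to 0.21). Its relative Grin3b, which is not among the 10, had 1 to 6 counts per mouse and was not tested.

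**Figure D2:**
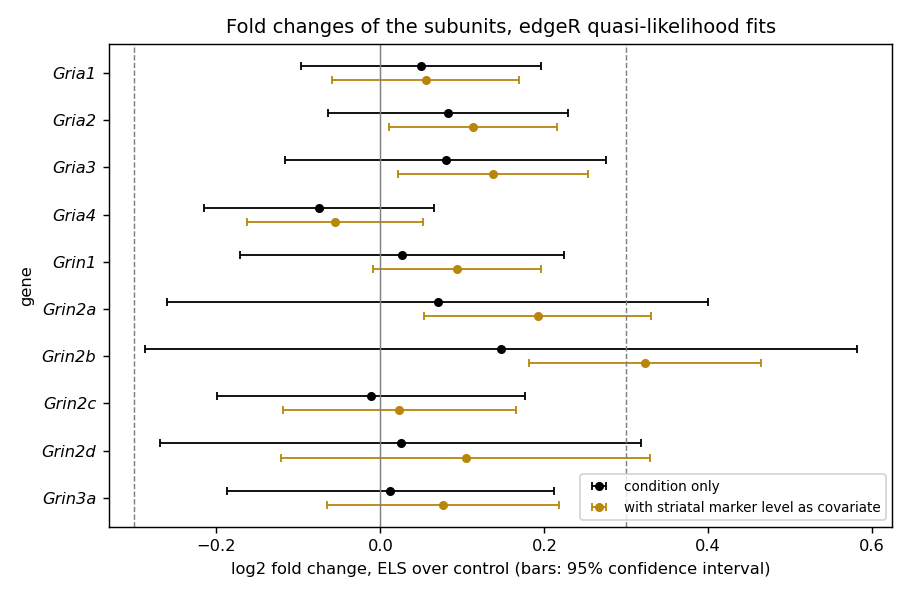
Log2 fold change of ELS over control mice for each subunit gene with its 95% confidence interval, from edgeR's quasi-likelihood fit with condition alone (black) and with the striatal marker level as a covariate (ochre). Dashed lines mark the fold change threshold of 0.3 in either direction. Every black interval spans 0, and the ochre intervals of Gria2, Gria3, Grin2a and Grin2b lie above 0, that of Grin2b from 0.18 to 0.46.

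Differences between mice of the same group were wide in Grin2b and Grin2a. The pooled SD of log2(CPM + 0.5) within groups was 0.42 for Grin2b and 0.31 for Grin2a, against a median of 0.09 for genes within 0.5 log2 units of either level. It was larger than that of all 860 such genes for Grin2b and of 99.8% of 1275 such genes for Grin2a. Grin2d, at 0.21, exceeded 92.6% of genes at its level. The AMPA subunits varied less than these 3, from 0.05 for Gria4, which exceeded 17.4% of genes at its level, to 0.15 for Gria3.

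Control mouse 3 and ELS mouse 1 were the 2 lowest mice in 5 of the 6 NMDA subunit genes, Grin2c being the exception, and in 1 of the 4 AMPA subunit genes, Gria3. The same was true of 16.5% of all genes tested. For Grin2b the deviation from the mean of the 6 mice was -0.52 in control mouse 3 and -0.44 in ELS mouse 1 on the log2 scale, and for Grin2a -0.34 in each. Gria1 did not follow this order, since ELS mouse 1 was its second highest mouse.

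Several other measures moved with these 2 mice. They had the highest striatal marker levels, as given above, and the highest summed CPM of oligodendrocyte markers, 7922 in control mouse 3 and 7005 in ELS mouse 1, beside 6009 to 6633 in the other 4. The summed CPM of cortical excitatory neuron markers was lowest in the same pair, 2003 and 2043, beside 2140.5 to 2313. Blood markers summed to 85.2 and 79.7 CPM in the pair and to 51.0 to 64.4 CPM in the others. Genes with long transcripts were also lower in both. The 287 genes with over 16 kb of merged exons had a median log2 deviation of -0.11 in control mouse 3 and -0.14 in ELS mouse 1, while the other mice had medians from 0.00460 to 0.09. Grin2b, with 24.8 kb, and Grin2a, with 17.9 kb, have the longest merged exons of the 10 genes, and both fell further below the mean in these mice than this class did. The part of tissue composition and of transcript length in the spread was not tested.

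**Figure D3:**
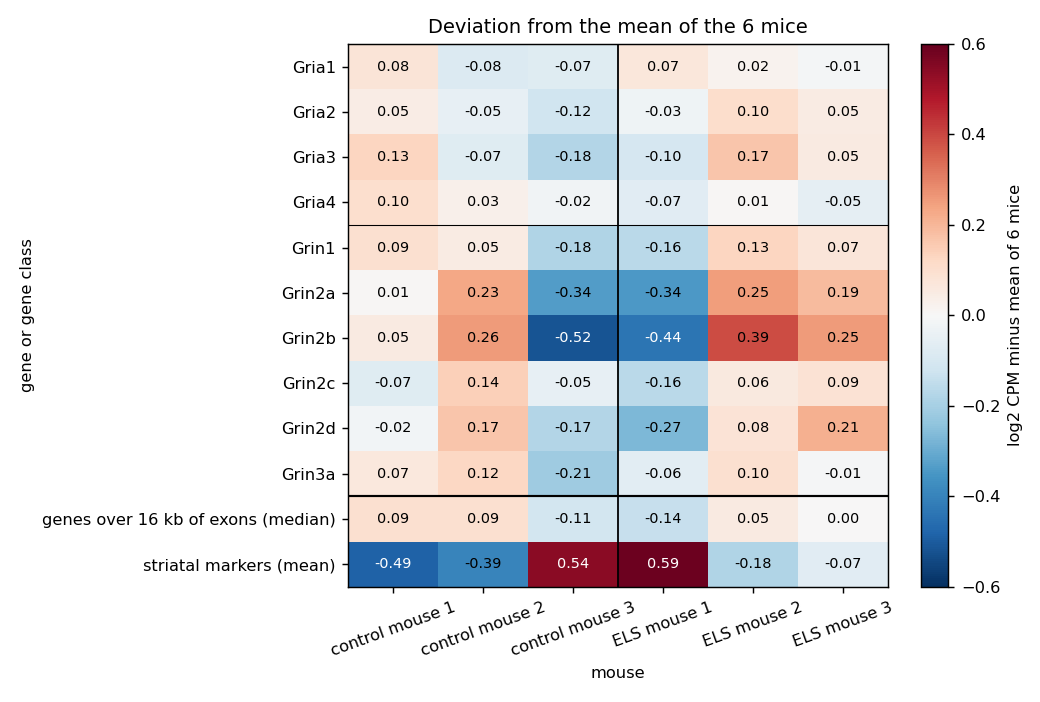
Deviation of each subunit from its mean over the 6 mice, in log2(CPM + 0.5), with the median deviation of genes over 16 kb of exons and the deviation of the mean log2(CPM + 1) of striatal markers in the bottom rows. Grin2a and Grin2b are lowest in control mouse 3 and ELS mouse 1, the mice with the highest striatal marker level.

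With the striatal marker level as a covariate, the median log2 fold change of the 10 genes was 0.10, beside -0.00382 over all genes tested. The 95% interval lay above 0 for Gria2, Gria3, Grin2a and Grin2b, and these 4 had an unadjusted p under 0.05, as did 7.24% of all genes in that edgeR fit. Grin2b had a log2 fold change of 0.32 (standard error 0.0682, interval from 0.18 to 0.46, edgeR quasi-likelihood adjusted p = 0.0435) and was called, alone among the 10, when 0.228% of all genes were. Grin2a had 0.19 (interval from 0.05 to 0.33), Gria3 0.14 (interval from 0.02 to 0.25) and Gria2 0.11 (interval from 0.01 to 0.22), with adjusted p-values of 0.409, 0.555 and 0.622 in the same edgeR fit, and were not called. Grin2c changed sign, from -0.01 to 0.02. When control mouse 3 and ELS mouse 1 were left out instead, an alternative chosen after seeing the data, the log2 fold change of Grin2b was 0.17 (interval from 0.02 to 0.32, edgeR quasi-likelihood adjusted p = 0.515), and none of the 10 genes was called. Without control mouse 3 alone it was -0.05, and without ELS mouse 2 alone -0.02, so that the direction for Grin2b turned with single mice. Over all alternatives its adjusted p in edgeR, DESeq2 or limma-voom ran from 0.0435 to 0.999995. The covariate, the mean log2(CPM + 1) of the markers, was 5.27 in control mouse 3 and 5.32 in ELS mouse 1. It was 4.24 and 4.33 in control mice 1 and 2, and 4.55 and 4.66 in ELS mice 2 and 3. Among these other mice the covariate was thus higher in the ELS group. The part of this difference in the adjusted fold changes was not tested.

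Levels can be compared between genes only per length, and CPM per kb of merged GENCODE exons was used for this. Gria1 was highest at 53.6 ± 2.51 CPM per kb (SD, n = 6 mice), followed by Gria2 at 43.5, Grin1 at 39.3, Gria3 at 26.1 and Gria4 at 22.2. The ranges of Gria2 and Grin1 over mice overlapped, as did those of Gria3 and Gria4, although the order within each pair held in all 6 mice. A gap then led to Grin2c at 10.9, Grin2b at 10.1 and Grin2a at 8.77 CPM per kb, whose ranges overlapped from each to the next. Grin2c was above Grin2b in 4 of the 6 mice only. Grin3a at 3.23 and Grin2d at 1.91 CPM per kb were lowest and separate from each other. The order depends on the gene models: with the longest transcript as the length, Grin1 rose to the first rank at 89.2 CPM per kb ahead of Gria2 at 65.3 and Gria1 at 58.4, and Grin2a and Grin2b exchanged places.

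The shares of single subunits in their receptor pools overlapped between the groups in all but 1 of 8 cases. In CPM of single genes, the groups did not overlap in 8.28% of all genes tested. By CPM per kb, Gria1 made up 36.8 ± 0.680% of the 4 AMPA subunits in the controls and 36.9 ± 1.75% in ELS mice (SD, n = 3 per group). Gria2 made up 29.6 ± 0.387% and 30.3 ± 0.636%, with ELS mouse 1 inside the control range. Gria4 differed in arrangement, with 15.5, 16.2 and 16.1% in the controls and 14.7, 14.6 and 14.6% in ELS mice. All ELS mice lay below all controls in this share. It was picked out after its values were seen and was not tested. With the longest transcript as the length, the shares were 13.6 ± 0.371% in the controls and 12.4 ± 0.1399% in ELS mice. In plain counts they were 10.5 ± 0.254% and 9.58 ± 0.128%. The groups were apart in both, but both reuse the same counts under other fixed weights and add no separate support.

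Among the 4 GluN2 subunits, also by CPM per kb, Grin2b ranged from 26.5% in control mouse 3 to 35.3% in ELS mouse 2. Grin2c ranged from 31.0% in ELS mouse 2 to 40.6% in control mouse 3. Grin2a was steady, at 26.4 to 28.1% in all mice. These shares rest on the exon lengths. In CPM without length, the control and ELS means were 55.2 and 54.8 for Grin2c, against 238 and 264 for Grin2b. The Grin2a to Grin2b count ratio, a common readout of NMDA receptor maturation, was 0.614, 0.624 and 0.720 in the controls and 0.677, 0.574 and 0.607 in ELS mice. The groups overlapped, and the log2 ratio differed by -0.07 (exact permutation test, two-sided, p = 0.5, adjusted p = 1 over 4 ratios). The Gria1 to Gria2 ratio was 0.489, 0.469 and 0.495 in the controls and 0.512, 0.452 and 0.459 in ELS mice, a log2 difference of -0.03 (exact permutation test, p = 0.7). Summed GluN2 over Grin1 differed by 0.07 and summed Gria over summed Grin by -0.00166 on the log2 scale (exact permutation test, p = 1 for both). With 3 against 3 mice this test cannot give a p below 0.1.

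**Figure D4:**
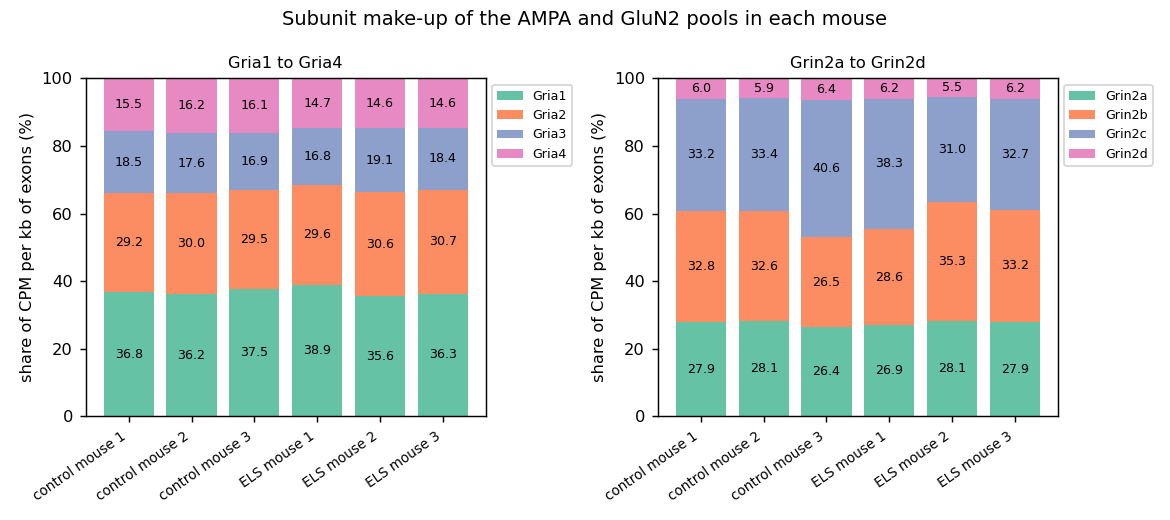
Share of each gene in the summed CPM per kb of Gria1 to Gria4 (left) and of Grin2a to Grin2d (right), in percent, for each mouse. The Gria4 share is 15.5 to 16.2% in the controls and 14.6 to 14.7% in ELS mice, and the Grin2b share is lowest in control mouse 3.

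The other genes of the pathway gave a similar result. From 8 lists of related genes, 83 of 85 were tested, and edgeR's quasi-likelihood test, the edgeR likelihood ratio test, DESeq2 and limma-voom each called 0 of them. Before adjustment, 2 had a quasi-likelihood p below 0.05, or 2.41%, and 5 genes, or 6.02%, had groups that did not overlap, both shares below those of all genes given above. These 5 were Shisa6 and Akap5, higher in ELS mice with log2 fold changes of 0.31 and 0.16, and Abhd6, Porcn and Slc1a5, lower with -0.14, -0.16 and -0.33. The list medians ran from -0.09 to 0.05 on the log2 scale.

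Of the 7 tested subunit genes of other ionotropic glutamate receptors, 3 were nominally higher in ELS mice, the lowest log2 fold change was -0.16 for the kainate receptor gene Grik3, and the groups overlapped in all. Neto1 and Neto2, which encode auxiliary subunits of kainate receptors, had 0.01 and 0.08. Among 19 auxiliary and assembly genes of AMPA receptors, Cacng2 and Cacng8, which encode transmembrane regulators (TARPs) of their gating and delivery, had log2 fold changes of -0.04 and 0.06. The cornichon gene Cnih2 had 0.06. The member of this list past an unadjusted p of 0.05 was Porcn, with 50.6, 49.1 and 48.0 CPM in the controls and 43.6, 43.7 and 45.2 CPM in ELS mice. Porcn encodes an acyltransferase of the endoplasmic reticulum best known for lipid modification of Wnt proteins. All its ELS mice lay below all control mice, but the log2 fold change of -0.16 (unadjusted p = 0.0330, edgeR quasi-likelihood adjusted p = 0.99998) did not pass correction.

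Among 20 binding and trafficking genes, the log2 fold change was 0.03 for Grip1 and 0.03 for Pick1, whose products bind GluA2 through PDZ domains, -0.02 for the scaffold gene Dlg4 and -0.06 for the kinase gene Camk2a. None of the 20 had an unadjusted p under 0.05. In the list of 3 editing genes, Adarb1 had 252 ± 33.8 CPM in the controls and 232 ± 21.2 CPM in ELS mice (SD, n = 3 per group), a log2 fold change of -0.12 with an interval from -0.33 to 0.09. Its relative Adarb2, which is not known to edit by itself, had 12.2, 9.74 and 10.4 CPM in the controls and 11.2, 14.0 and 13.9 CPM in ELS mice. ELS mouse 1 lay below control mouse 1, and the log2 fold change of 0.27 (unadjusted p = 0.0490, edgeR quasi-likelihood adjusted p = 0.99998) did not pass correction.

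For NMDA receptor kinases and signalling, 12 of 14 genes were nominally higher in ELS mice, beside 47.5% of all genes tested. The median log2 fold change of these 14 was 0.04. In the list for the supply of the co-agonists glycine and D-serine, 5 of 10 tested genes were nominally higher and the median was 0.01. For glutamate supply and clearance the counts were 3 of 8, with a median of -0.02. No gene of these 3 lists had an unadjusted p under 0.05. Across 12 lists of cell type markers, the same quasi-likelihood test and the 3 other tests called 0 of 71 entries tested, and 2 had an unadjusted p under 0.05, the endothelial Cldn5 with a log2 fold change of 0.31 and the thalamic Tcf7l2 with -0.48.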

How the data were processed

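The data were PFC RNA-seq of 3 control and 3 ELS mice. The authors trimmed reads, aligned them to mm10 (STAR), assigned unique alignments to genes (HTSeq) and deposited raw counts by gene symbol, neither normalized nor pooled. The submitters' processing notes name STAR 2.7.1a and HTSeq 0.9.1, while the paper names another STAR version. The paper and the labels also name different stranded library kits. Annotation release and strand setting are not given in the sources used here. Columns of ELS mice carry the abbreviation of social isolation and the mouse number, by which they were assigned.

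As in the study, a gene was kept when every mouse of either group reached 1 CPM. R 4.3.3, edgeR 4.0.16, limma 3.58.1 and DESeq2 1.42.0 were used. TMM-scaled counts were fitted by quasi-likelihood with a term for condition alone, with Benjamini-Hochberg adjustment over all 13185 genes. Calls needed an adjusted p below 0.05 and a log2 fold change beyond 0.3 in either direction. Standard errors and 95% intervals were derived from the F statistic. The tests were checked on simulated counts.

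Coordinates and lengths were taken from GENCODE M21 (GRCm38, equal to mm10), which held 89.0% of symbols. Mice are separate animals, and within groups the chi-square over its degrees of freedom was never below 6.70. No library was thus a repeat of another of its group, and pairs across the groups were not checked. The lowest count of a subunit was 318 in a mouse.

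The genes, related lists and tests were chosen with earlier results of these data known. Named genes were the 10 subunits, called genes of the related lists, the largest rise and fall per list among those with an unadjusted p under 0.05, and 8 genes fixed by name (Adarb1, Cacng2, Cacng8, Cnih2, Grip1, Pick1, Camk2a, Dlg4). Grik3, Neto1, Neto2, Slc17a7, Drd2, Grin3b, Shisa6, Akap5, Abhd6, Slc1a5, Cldn5 and Tcf7l2 were added afterwards to give ranges and levels. Other genes of the related lists entered the counts and medians, and 1 of them is not reported here by name. Alternatives were other tests, normalizations, filters, thresholds, a replicate block, a striatal covariate and leaving out mice. Alternative gene lengths for the Gria4 share, and leaving out control mouse 3 and ELS mouse 1 together, were added after seeing the data.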

Additional observations from a re-analysis of the deposited data

How the results depend on the processing

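None of the 10 subunit genes was called under any alternative test, normalization, filter or threshold tried, with the replicate block, or without any 1 mouse. The striatal covariate gave 1 call, Grin2b, with an adjusted p of 0.0435. Over all alternatives its adjusted p ran from 0.0435 to 0.999995 and its log2 fold change from -0.05 to 0.36. Among the related lists 0 genes were called in every alternative. Of 180 subunit fold changes under other settings, 161 kept their direction and their side of the adjusted p threshold and 18 changed sign. Grin2b passed a log2 fold change of 0.3 without control mouse 2, at 0.317, and without ELS mouse 1, at 0.357, with adjusted p-values of 0.9997 and 0.99999 in edgeR. Without single mice the fold changes ran from -0.0549 to 0.11 for Grin1, -0.0697 to 0.23 for Grin2a, -0.0476 to 0.36 for Grin2b, -0.0593 to 0.0617 for Grin2c, -0.0838 to 0.15 for Grin2d and -0.0858 to 0.0792 for Grin3a. Among AMPA subunits, none of which changed sign, Gria1 ran from 0.0214 without control mouse 2 to 0.10 without control mouse 1, Gria2 from 0.0432 without control mouse 3 to 0.13 without control mouse 1, Gria3 from 0.0106 without ELS mouse 2 to 0.17 without control mouse 1, and Gria4 from -0.10 without control mouse 3 to -0.0425 without control mouse 1. Grin2c was 0.0228 with the striatal covariate and 0.0378 without control mouse 3 and ELS mouse 1, where Grin3a was -0.0453. The median of the 10 ran from -0.05 to 0.11 without single mice. The number of subunits without overlap, 0 with all mice, ran from 0 to 2 when 2 mice were set against 3: Gria1 and Gria2 without control mouse 1, when 17.6% of all genes did not overlap, and Gria4 without control mouse 3 (29.5%) and without ELS mouse 2 (16.2%). The log2 ratio differences ran from -0.141 without ELS mouse 1 to -0.00184 without control mouse 3 for Grin2a to Grin2b, from -0.0881 to 0.00143 for Gria1 to Gria2, from -0.0199 to 0.19 for summed GluN2 over Grin1 and from -0.12 to 0.0896 for summed Gria over summed Grin.

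The labels do not say whether mice of the same number form pairs. Deviations from the group means correlated at -0.15, 0.24 and -0.03 for numbers 1, 2 and 3. With 3 mice per group, these values cannot settle whether the numbers pair the mice. A replicate block by number gave 7 calls over all genes instead of 2, and 0 among the 10 subunits. The block changed no subunit's direction, and Grin2b was 0.14. Over all genes, 28 were called by the likelihood ratio test, 18 by DESeq2, 30 with the striatal covariate, 29 without control mouse 3 and 27 without control mouse 3 and ELS mouse 1, and 1 without any other single mouse. The Gria4 share differed by -1.29 percentage points by merged exons, -1.15 by longest transcript and -0.94 by counts. With 3 mice per group, the wide spread of Grin2a and Grin2b left wide intervals. The causes of these shifts were not tested.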

Other observations

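The genes whose log2 CPM followed Grin1 most closely over the 6 mice were Cnksr2, Slc2a13 and Ptgfrn. Pearson's r was 0.998, 0.997 and 0.995, and Spearman's rho was 0.943, 1 and 0.943. Without control mouse 3 and ELS mouse 1, r was 0.941, 0.994 and 0.943. In all, 174 genes, or 1.32% of those tested, had an r above 0.95 with Grin1. For Gria2 the closest genes were Cntnap5c, Tmem255a and AC121838.2, with an r of 0.994, 0.993 and 0.987, and 37 genes, or 0.281%, were above 0.95. These correlations describe 6 libraries of unequal depth, were picked as the highest of all genes, and carry no test.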
